A study of Homo sapiens with 45 samples.

Results

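SH-SY5Y, an established human neuroblastoma line, was compared between 5 days and 24 h of exposure to palbociclib (PB), a small-molecule inhibitor of the kinases CDK4 and CDK6. The comparison takes in 10 of the 45 libraries of the series, 5 for each treated time, and 14547 of the 29159 genes in the count tables, those with enough counts in this line. The question it addresses is which part of the transcriptional response builds up, or fades, while the drug is kept on. Both treated groups received 1 µM PB in medium with 10% serum, and 5 untreated SH-SY5Y libraries, collected with the 24 h samples, are used as a reference level. The line carries a mutation of ALK and gains on 1q and 17q, without MYCN amplification. Within a group, each of the 5 libraries came from its own experiment, on cells of another passage. No control kept for 5 days was analysed here, so longer exposure to PB and longer time in culture cannot be told apart.

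In cycling cells, D-type cyclins with CDK4 or CDK6 phosphorylate the retinoblastoma protein RB, which releases E2F factors to drive the genes of DNA replication. E2F and the mitotic factors MYB and FOXM1 then act in sequence on the genes of S phase and of mitosis, and CDK inhibitors such as PB hold RB in its repressive form. Neuroblastoma arises from the sympathoadrenal lineage, and adrenergic lines such as SH-SY5Y carry the transcription factors of sympathetic neuroblasts together with enzymes of catecholamine synthesis.

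The 24 h libraries held 16853018 to 21961506 counts and the 5 d libraries 16556335 to 20711967. Values are CPM, counts scaled to a common library total, and log2 fold changes, standard errors and Benjamini-Hochberg adjusted p-values come from edgeR's quasi-likelihood test across all genes tested. Levels given as going from 1 value to another are means ± SD of 5 libraries at 24 h and at 5 d. A gene is called where the adjusted p is under 0.05 and the log2 fold change is over 0.5 in size. The adrenergic label held in every treated library, with mean levels at 24 h and 5 d of 1290 and 1250 CPM for HAND2 and 1080 and 965 CPM for GATA2. TH, the first enzyme of catecholamine synthesis, was under 1 CPM in every treated library. Of 7 defining Schwann cell and glial genes chosen, SOX10 was not in the count tables and so could not be checked. The other 6 summed to 2.73 to 5.37 CPM at 5 d and 3.32 to 4.69 CPM at 24 h. CDH19 had 0 counts in 10 of the 10 treated libraries and FOXD3 0 in 9. The counted strand is not stated, so reads from a gene and from a transcript on its opposite strand cannot be told apart.

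Between 24 h and 5 d of PB, 1527 genes rose and 907 fell, which is 10.5% and 6.23% of the genes tested. The 5 d libraries lay wholly above the 24 h libraries for 2298 genes (15.8%) and wholly below for 1299 (8.93%), called or not. Overlap was judged on CPM from library totals, a scale on which the median log2 fold change of all genes was 0.063. In the test, which also applies normalisation factors (TMM), that median was 0.004. Large changes were a minority: 514 of the genes that rose and 312 of those that fell passed a log2 fold change of 1, and 68 and 44 passed 2.

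The largest rise among genes with a mean of at least 5 CPM and no overlap between the groups was that of PAPPA2, a secreted metalloproteinase that cleaves IGF-binding proteins (chromosome 1, 176432307 to 176814737, GRCh37). It had 0.0593, 1.05, 0.119, 0.0911 and 0.209 CPM in replicates 1 to 5 at 24 h and 20, 22.1, 22.1, 8.79 and 5.32 CPM at 5 d (log2 fold change 5.64 ± 0.56 SE, adjusted p = 5.4e-06). Replicates 4 and 5 at 5 d were the lowest of their group. H19, an imprinted long noncoding RNA of fetal tissues (chromosome 11, 2016396 to 2025782), went from 4.57, 5.71, 3.74, 4.55 and 2.83 CPM to 66.8, 60, 71.1, 39.4 and 17.3 CPM (log2 fold change 3.51 ± 0.37 SE, adjusted p = 1.2e-05). CLSTN2, a postsynaptic cadherin-family protein, had 8.13, 14.3, 6.11, 6.19 and 6.28 CPM at 24 h and 109, 172, 113, 42.3 and 30.7 CPM at 5 d (log2 fold change 3.45 ± 0.47 SE, adjusted p = 9.2e-05). In H19 and CLSTN2 the same 2 replicates were again the lowest at 5 d.

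The diacylglycerol kinases DGKB and DGKK, which end diacylglycerol signals, rose from 2.5 ± 0.792 to 20.1 ± 4.22 CPM (log2 fold change 2.95) and from 6.01 ± 1.85 to 39.1 ± 4.36 CPM (2.65). CNKSR2, a scaffold of Ras signalling at the postsynapse, rose from 1 to 11.1 CPM and at 24 h lay under the untreated mean of 3.23 CPM. It shares 1653 bases of exon with transcripts on the opposite strand. The apelin receptor APLNR rose from 6.05 ± 2.55 to 32.1 ± 4.95 CPM, the lipid carrier APOE from 3.29 ± 1.24 to 16.7 ± 6.84 CPM, the neuroglycan CSPG5 from 3.44 ± 0.981 to 16.9 ± 2.37 CPM and ASTN1, a protein of neuron migration along glia, from 6.58 ± 1.3 to 31.4 ± 10 CPM. PXDNL, a peroxidasin-like protein, rose from 1.9 ± 0.709 to 8.62 ± 4.52 CPM. DGKK at 5 d spanned 35.3 to 46.4 CPM, a narrow range beside that of CLSTN2, 30.7 to 172 CPM.

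**Figure D1:**
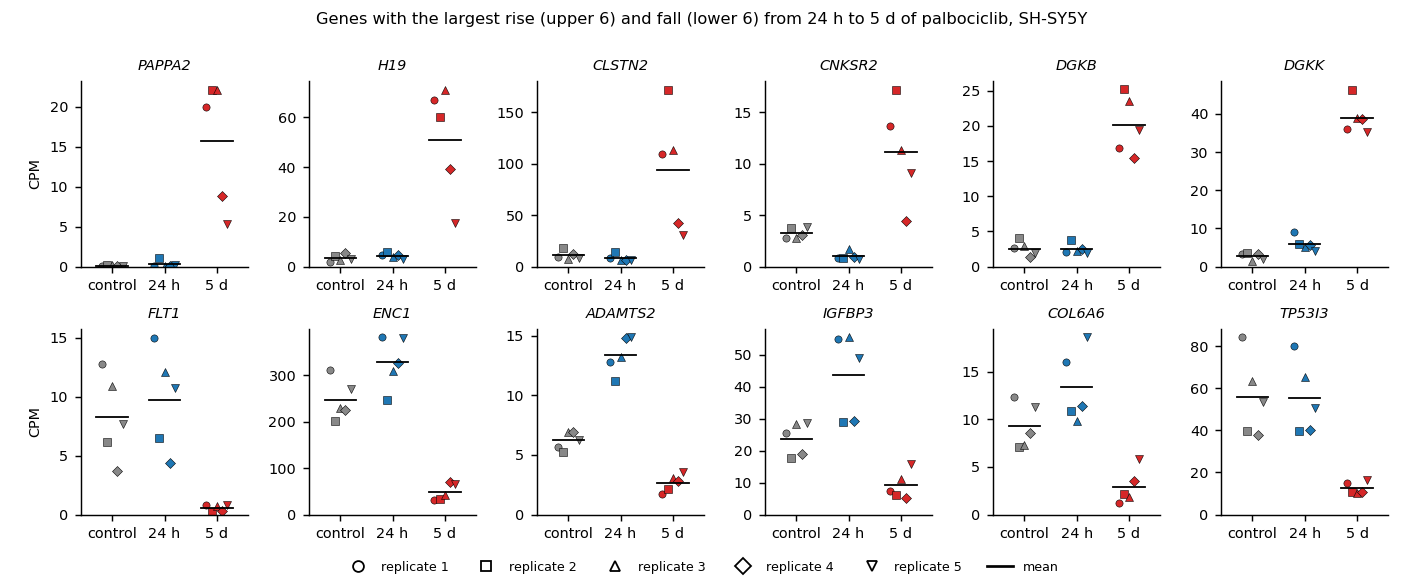
CPM (vertical axes, linear, from 0) in each of the 15 SH-SY5Y libraries for the 6 genes with the largest rise and the 6 with the largest fall from 24 h to 5 d of PB, in untreated, 24 h and 5 d libraries. Symbols mark the replicate number and lines the group mean. The rule that chose the genes required no overlap of 5 d and 24 h libraries. Replicates 4 and 5 are the lowest at 5 d for PAPPA2, H19 and CLSTN2.

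Ranked by the gain in CPM among called genes with no overlap of the groups and a mean of at least 5 CPM, the genes at the top were CHGB, ARHGAP36, SYT4, LAMA5 and ITGA1. CHGB, a granin of dense-core vesicles, had 913, 1340, 870, 708 and 507 CPM at 24 h and 2240, 3090, 3530, 2510 and 1760 CPM at 5 d (log2 fold change 1.54 ± 0.26 SE, adjusted p = 0.00041). ARHGAP36, a RhoGAP-family protein that inhibits protein kinase A and promotes Hedgehog signalling, had 360, 442, 393, 359 and 234 CPM at 24 h and 1490, 1910, 2290, 1680 and 1300 CPM at 5 d (log2 fold change 2.22 ± 0.18 SE, adjusted p = 6.6e-07). Replicate 5 was the lowest library of its group at both times for CHGB and ARHGAP36. The laminin chain LAMA5 rose from 392 ± 46 to 703 ± 116 CPM and the collagen-binding integrin ITGA1 from 216 ± 19.8 to 521 ± 134 CPM, the latter with 1494 bases of exon shared with opposite-strand transcripts.

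The largest fall was that of FLT1, the VEGF receptor VEGFR1 (chromosome 13, 28874483 to 29069282), with 15, 6.52, 12.1, 4.33 and 10.7 CPM at 24 h and 0.784, 0.223, 0.724, 0.28 and 0.785 CPM at 5 d (log2 fold change -4.15 ± 0.47 SE, adjusted p = 1.4e-05). ENC1, an actin-binding protein of developing neurons, had 382, 247, 309, 327 and 381 CPM at 24 h and 30.8, 32.4, 42.3, 69 and 65.8 CPM at 5 d (log2 fold change -2.83 ± 0.24 SE, adjusted p = 1.8e-06), with 355 bases of exon shared with opposite-strand transcripts. ENC1 at 24 h stood above its untreated mean of 247 CPM and at 5 d far below it. The procollagen protease ADAMTS2 had 12.8, 11.2, 13.2, 14.8 and 14.9 CPM at 24 h and 1.68, 2.18, 3.04, 2.8 and 3.56 CPM at 5 d (log2 fold change -2.39 ± 0.17 SE, adjusted p = 5.8e-08), also from a 24 h level above the untreated mean of 6.22 CPM.

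The other large falls included matrix proteins and growth-factor regulators. COL6A6 fell from 13.3 ± 3.77 to 2.94 ± 1.84 CPM, thrombospondin THBS2 from 12.5 ± 4.79 to 2.95 ± 0.897 CPM and tenascin TNC from 9.86 ± 4.27 to 2.47 ± 1.46 CPM. THBS2 shares 2249 bases of exon with an antisense transcript. SCUBE1, a secreted and membrane protein of the EGF-repeat family, fell from 59.4 ± 11.1 to 16 ± 5.41 CPM, the transcriptional regulator SAMD11 from 140 ± 38.3 to 37.1 ± 19 CPM and the lipid-anchored protein BAALC from 35.3 ± 8.95 to 9.9 ± 1.8 CPM. By loss of CPM the leading genes were DBH (from 3480 ± 617 to 1930 ± 420 CPM), the actins ACTB (3740 ± 236 to 2210 ± 388 CPM) and ACTG1 (2240 ± 121 to 1110 ± 277 CPM) and the glycolytic enzymes GAPDH (2290 ± 279 to 1450 ± 188 CPM) and ENO1 (1390 ± 241 to 720 ± 137 CPM). ACTB and GAPDH, often used as reference genes, were lower in every 5 d library than in any 24 h library, as the rule that ranked them required.

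Genes of mitosis rose from 24 h to 5 d but were still far below the untreated level. Of 67 listed and tested, 64 rose and none fell (median log2 fold change 0.99; 10.5% of all genes rose). Summed over the list, the 24 h libraries held 1267, 1105, 1129, 1453 and 1370 CPM, the 5 d libraries 1381, 2002, 2626, 3050 and 3376 CPM, and the untreated libraries 8186 to 10244 CPM. Replicate 1 at 5 d thus lay inside the 24 h range, and the other 4 lay above it. In bulk RNA, more cells with transcripts of mitosis and more such RNA per cell cannot be told apart. Without that library 66 of the 67 rose, with a median of 1.14. The 5 d group was spread over 1381 to 3376 CPM, against 1105 to 1453 CPM at 24 h.

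NDC80, a kinetochore subunit, had 3.44, 1.98, 3.62, 4.1 and 3.3 CPM at 24 h and 4.42, 7.7, 12.9, 17 and 18.2 CPM at 5 d (log2 fold change 1.81 ± 0.33 SE, adjusted p = 0.0007), beside 47.4 CPM in untreated cells. The phosphatase CDC25C, which activates CDK1, rose from 2.83 ± 0.491 to 7.63 ± 2.48 CPM, the mitotic transcription factor FOXM1 from 29.6 ± 1.3 to 73.3 ± 27.1 CPM and the chromosomal passenger CDCA8 from 9.23 ± 2.22 to 22.4 ± 6.32 CPM, and their untreated means were 16.9, 304 and 69.1 CPM. MKI67, the proliferation marker Ki-67, had 17.7, 13.6, 11.8, 31.6 and 38.4 CPM at 24 h and 11.3, 46.9, 69.8, 116 and 113 CPM at 5 d (log2 fold change 1.59 ± 0.50 SE, adjusted p = 0.02), with 820, 573, 524, 790 and 745 CPM in the untreated libraries. Its 5 d library of replicate 1 lay under all 24 h libraries, and its call was lost without replicate 5 of the 5 d group (1.38, adjusted p = 0.05).

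Promoters of 2 of these genes are shown because the cell-cycle homology region (CHR), an element of genes expressed in mitosis, occurs in them, in CDCA8 by the naming rule and in MKI67 as the anchor of the list. The CHR letters searched were TTTGAA on both strands of the 200 bases before the RefSeq start site (GRCh38.p14), and they occur in 10.5% of all 27305 promoters, in 23 of the 57 mitosis promoters found (40.4%) and in 2 of the 51 found for DNA replication. Capitals mark the matches.
CDCA8, chr1:37692316-37692515, plus strand: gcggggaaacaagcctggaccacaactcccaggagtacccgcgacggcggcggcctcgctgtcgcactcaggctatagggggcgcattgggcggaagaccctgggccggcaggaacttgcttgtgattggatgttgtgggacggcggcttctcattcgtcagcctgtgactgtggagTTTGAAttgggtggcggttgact
MKI67, chr10:128126424-128126623, minus strand: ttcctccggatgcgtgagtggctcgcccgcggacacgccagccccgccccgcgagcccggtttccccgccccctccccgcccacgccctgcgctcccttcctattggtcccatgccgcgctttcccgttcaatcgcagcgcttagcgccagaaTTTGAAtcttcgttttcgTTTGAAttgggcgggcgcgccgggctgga

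Genes of DNA replication and the G1/S transition followed with a smaller rise: 36 of 60 rose (60%, against 10.5% of all genes), none fell, and the median log2 fold change was 0.56. Their summed level was 1858 to 2217 CPM at 24 h and 2003, 2492, 3088, 3089 and 4073 CPM in replicates 1 to 5 at 5 d, against 7335 to 8222 CPM without PB. Leaving out 1 library at a time, 24 to 45 of the 60 rose. The count was 45 without replicate 1 at 5 d. CDC45, part of the replicative helicase, rose from 5.39 ± 1.71 to 17 ± 8.03 CPM, the origin-licensing factor CDT1 from 7.85 ± 1.78 to 23.9 ± 10.7 CPM and the histone chaperone ASF1B from 8.93 ± 1.24 to 21.4 ± 7.8 CPM. E2F1 rose from 19.9 ± 5.26 to 37.9 ± 14.2 CPM (log2 fold change 0.87) with overlapping groups. The helicase subunit MCM2 had 87.6, 70.3, 71.2, 101 and 86.7 CPM at 24 h and 67, 94.6, 122, 120 and 180 CPM at 5 d and did not pass the test (adjusted p = 0.098), but was called without replicate 1 at 5 d (0.61, adjusted p = 0.0072).

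**Figure D2:**
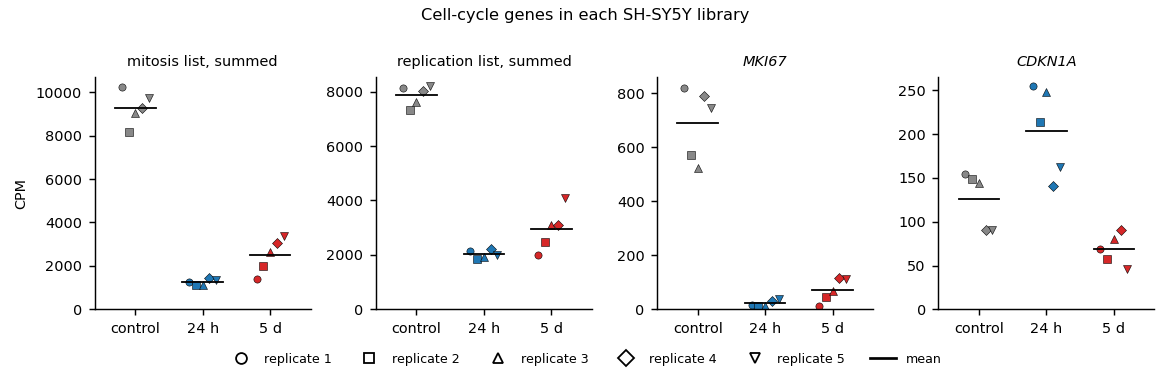
CPM (linear axes from 0) in each SH-SY5Y library: the summed mitosis list, the summed replication and G1/S list, MKI67 and CDKN1A, in untreated, 24 h and 5 d libraries, with symbols for replicate numbers and lines for means. At 5 d the mitosis sum spans 1381 to 3376 CPM, above the 24 h range in 4 of 5 libraries and below every untreated library, and all 5 CDKN1A values at 5 d lie below those at 24 h.

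CDKN1A, the CDK inhibitor p21, moved the other way. It had 154, 149, 144, 90.4 and 90.6 CPM in untreated cells, 255, 214, 248, 141 and 162 CPM at 24 h and 69, 57, 80, 90.2 and 46 CPM at 5 d (log2 fold change -1.63 ± 0.22 SE, adjusted p = 8.6e-05). It was the gene of the D-cyclin, CDK4/6 and RB list that fell, and CDKN2D, the inhibitor p19, was the one that rose (from 12.1 ± 1.06 to 20.4 ± 3.21 CPM), out of 24 tested, or 4.17% each way beside 6.23% and 10.5% of all genes. Called or not, 10 of the 24 lay wholly above the 24 h libraries and 1 wholly below, beside 15.8% and 8.93% of all genes. In that list 2 genes fell with the replicate number as a block, and 2 fell without replicate 3 or without replicate 4 at 5 d. On library totals alone 2 rose. CCND1, cyclin D1, had 2730, 2390, 2490, 2250 and 2300 CPM at 24 h and 2460, 2920, 2640, 2600 and 2980 CPM at 5 d and did not pass the test (log2 fold change 0.10, adjusted p = 0.28), at both times above its untreated mean of 1520 CPM.

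Of 34 p53 targets, 13 fell and none rose (6.23% of all genes fell), with a median log2 fold change of -0.30. Besides CDKN1A they included TP53I3, a quinone oxidoreductase (80.3, 39.8, 65.6, 40.1 and 50.8 CPM at 24 h and 14.8, 10.5, 10.4, 10.9 and 16.2 CPM at 5 d), GDF15, a stress-induced cytokine (from 11.5 ± 3.2 to 4.38 ± 1.66 CPM), and the TNF-family receptor EDA2R (from 14.7 ± 2.25 to 7.86 ± 1.49 CPM). The 24 h levels of TP53I3 ranged from 39.8 to 80.3 CPM, and every 5 d library was at or under 16.2 CPM. Of 31 genes linked to quiescence and FOXO factors, 11 rose (35.5%, against 10.5% of all genes) and 4 fell (12.9%, against 6.23%), with a median of 0.38. The genes that fell were KLF2, SESN1, RGS2 and TOB1, named after their values were seen. FOXO6, a FOXO transcription factor, rose from 6.54 ± 1.31 to 15.6 ± 4.45 CPM, the antiproliferative BTG1 from 84.4 ± 4.71 to 165 ± 49.6 CPM, SESN3, a brake on mTORC1, from 103 ± 10.9 to 190 ± 43 CPM and TXNIP, which limits glucose uptake, from 216 ± 42.6 to 342 ± 40.4 CPM. MXD3, a MAX partner expressed in S phase, rose from 2.86 ± 0.622 to 8.44 ± 3.95 CPM, with 29.6 CPM in untreated cells.

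Of 25 transcription factors of the adrenergic state, 1 rose (4%, against 10.5% of all genes) and 4 fell (16%, against 6.23%), with a median of -0.15, and 3 rose without replicate 2 at 24 h or 2 without replicate 5 at 5 d and on library totals alone. ISL1, a LIM-homeodomain factor of sympathetic and motor neurons, was higher in each 5 d library than in any 24 h library (264 and 363 CPM), with a log2 fold change of 0.40, under the limit. TBX3, a repressor of the T-box family, fell from 363 ± 72 to 132 ± 66.9 CPM and SOX11, a factor of immature neurons, from 182 ± 15.8 to 108 ± 19.2 CPM. MYCN, low in this line, rose from 4.27 ± 0.925 to 8.06 ± 3.59 CPM (log2 fold change 0.86, adjusted p = 0.012), with overlapping groups.

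Of 15 genes of catecholamine synthesis and transport, 4 fell (26.7%, against 6.23% of all genes) and 1 rose (6.67%, against 10.5%), with a median of -0.41. DDC, which decarboxylates DOPA, had 286, 273, 267, 316 and 283 CPM at 24 h and 57.9, 82.6, 119, 147 and 137 CPM at 5 d (log2 fold change -1.44 ± 0.19 SE, adjusted p = 6.1e-05). DBH, which turns dopamine into noradrenaline, had 3190, 3520, 2710, 4400 and 3570 CPM at 24 h and 1320, 1820, 1980, 2490 and 2050 CPM at 5 d (log2 fold change -0.91 ± 0.17 SE, adjusted p = 0.00056). SLC18A1, a vesicular monoamine transporter, fell from 272 ± 43.5 to 146 ± 40.5 CPM, while its relative SLC18A2 rose from 4.49 ± 0.756 to 9.2 ± 3.51 CPM. For DBH and SLC18A1 the 5 d means stood beside the untreated means of 1700 and 154 CPM, and DDC at 5 d lay under its untreated mean of 170 CPM.

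Of 15 granins, neuropeptides and processing enzymes, 3 rose (20%, against 10.5% of all genes) and 2 fell (13.3%, against 6.23%), with a median of 0.31, and 5 rose without replicate 1 of the 5 d group. Besides CHGB, the granin SCG2 rose, from 227, 174, 169, 126 and 113 CPM to 543, 481, 369, 344 and 301 CPM (log2 fold change 1.27 ± 0.21 SE, adjusted p = 0.00035). CHGA, another granin, had 1480, 2140, 1250, 1960 and 1540 CPM at 24 h and 2060, 2290, 3220, 2620 and 2100 CPM at 5 d (log2 fold change 0.50 ± 0.19 SE, adjusted p = 0.04), at the fold limit and not called. It was called with the replicate number as a block (0.52, adjusted p = 0.023), with DESeq2 and with RLE factors (both 0.51, adjusted p = 0.037), on library totals alone (0.55, adjusted p = 0.022) and without replicate 2 or 4 at 24 h or replicate 1, 2 or 5 at 5 d (0.54 to 0.62). The neuropeptide precursors VGF and GAL fell, from 1540 ± 371 to 1000 ± 110 CPM and from 148 ± 18 to 88.3 ± 34.7 CPM, and NPY had 124 and 119 CPM with overlapping groups (adjusted p = 0.76).

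Genes of synaptic vesicles and the active zone rose more often than all genes did: 15 of 59, or 25.4%, against 10.5%. Another 5 fell (3 without replicate 3 at 24 h or without replicate 1 or 2 at 5 d, on library totals alone or with no filter on low counts), and the median log2 fold change was 0.21. The synaptotagmins SYT9, SYT5 and SYT4, vesicle membrane proteins, were among those that rose. SYT9 had 34.9, 35.3, 31.3, 22.2 and 27.5 CPM at 24 h and 158, 135, 85.6, 78.5 and 73 CPM at 5 d (log2 fold change 1.75 ± 0.20 SE, adjusted p = 1.5e-05), SYT5 rose from 31.3 ± 3.71 to 71.3 ± 13.3 CPM and SYT4 from 301 ± 77.2 to 665 ± 41.2 CPM. RPH3A, a Rab3 effector, fell from 73.6 ± 9.72 to 26.3 ± 15.7 CPM. SYP, a vesicle membrane protein, was higher in each 5 d library than in any 24 h library (106 and 148 CPM) with a log2 fold change of 0.42, under the limit. SNAP25, a SNARE of the plasma membrane, had 66.6 and 76.3 CPM and did not pass the test (adjusted p = 0.31).

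**Figure D3:**
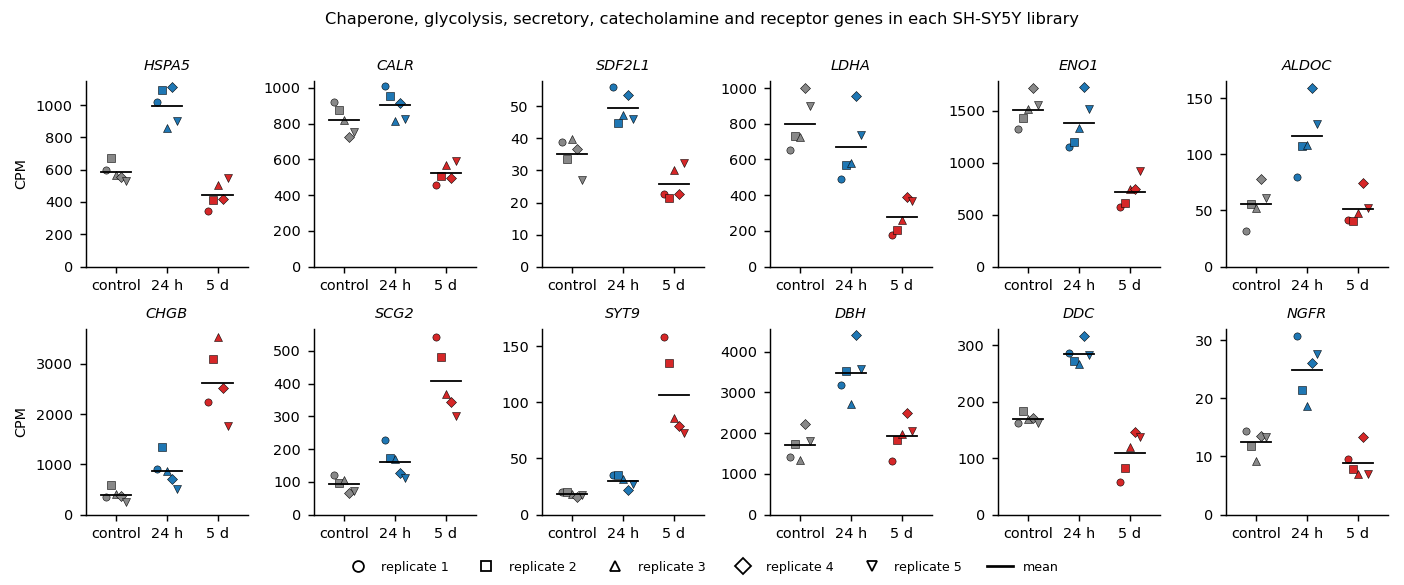
CPM (linear axes from 0) in each untreated, 24 h and 5 d SH-SY5Y library for chaperones (HSPA5, CALR, SDF2L1), glycolytic enzymes (LDHA, ENO1, ALDOC), granins and SYT9, and genes of the noradrenergic phenotype (DBH, DDC) and the receptor NGFR. Symbols mark replicate numbers and lines the means. The rule that chose the genes required no overlap of 24 h and 5 d libraries. DBH and NGFR at 5 d have means of 1930 and 8.9 CPM beside untreated means of 1700 and 12.4 CPM.

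Postsynaptic and synaptic adhesion genes were called in both directions, with 12 of 59 higher (20.3%, against 10.5% of all genes) and 9 lower (15.3%, against 6.23%) and a median of -0.02. SLITRK3, which organises inhibitory synapses, rose from 2.67 ± 1.69 to 9.98 ± 4.52 CPM and the scaffold SHANK1 from 10.8 ± 1.59 to 22.2 ± 6.07 CPM, while the teneurin TENM4 fell from 243 ± 37.4 to 86.8 ± 22.4 CPM and SLITRK6 from 8.49 ± 0.754 to 4.8 ± 0.568 CPM. Of 60 genes of axon growth and the neuronal cytoskeleton, 10 rose (16.7%) and 11 fell (18.3%), with a median of -0.01. STMN4, a stathmin that binds tubulin, had 31.4, 19.6, 18.9, 14.5 and 11.7 CPM at 24 h and 52.6, 58.8, 62.1, 57.3 and 56.1 CPM at 5 d (log2 fold change 1.53 ± 0.23 SE, adjusted p = 0.00016), and the adhesion molecule NCAM2 rose from 16.7 ± 3.76 to 45.9 ± 7.83 CPM. The neurofilament chains NEFL and NEFM fell, from 304 ± 27.5 to 153 ± 41.2 CPM and from 160 ± 18.8 to 87.7 ± 33.2 CPM, as did the neuronal tubulin TUBB3, from 735 ± 58.3 to 486 ± 90.4 CPM, and ankyrin ANK3, from 8.9 ± 1.56 to 4.2 ± 0.984 CPM. STMN2 and GAP43, both of the growth cone, had 1160 and 1070 CPM and 106 and 79.7 CPM and were not called, GAP43 with an adjusted p of 0.0069 and a log2 fold change of -0.47. GAP43 was called lower without replicate 2 or 4 at 24 h or replicate 4 at 5 d (-0.58 to -0.50).

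Of 60 axon guidance genes, 10 rose (16.7%, against 10.5%) and 7 fell (11.7%, against 6.23%), with a median of 0.02, among them the netrin-G NTNG2 (from 3.36 ± 0.743 to 12 ± 3.5 CPM) and the netrin receptor UNC5A (from 5.58 ± 0.205 to 11.8 ± 3.17 CPM) upward, and the semaphorin receptor PLXNA2 (from 265 ± 57.1 to 88.1 ± 27.5 CPM) and the ephrin EFNB1 (from 22.2 ± 1.12 to 12.7 ± 0.433 CPM) downward. Potassium channels rose in 10 of 42 (23.8%) and fell in 3 (7.14%), with a median of 0.27. Sodium and calcium channels rose in 7 of 30 (23.3%) and fell in 2 (6.67%), with a median of 0.31. Their shares lower were near the 6.23% of all genes. The pacemaker channel HCN3 had 23.7, 25.2, 22.9, 24.7 and 24.2 CPM at 24 h and 52.4, 51.6, 45, 62 and 50.4 CPM at 5 d (log2 fold change 1.05 ± 0.08 SE, adjusted p = 1.1e-07). Of 39 neurotransmitter receptors, 6 rose (15.4%) and 3 fell (7.69%; median 0.10; 5 fell without replicate 4 at 5 d). The glycine receptor chain GLRB rose from 7.1 ± 1.3 to 12.1 ± 1.03 CPM, and the adrenergic receptor ADRA2A fell from 8.17 ± 1.77 to 2.7 ± 1.27 CPM.

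NGFR, the p75 receptor of neurotrophins, had 30.7, 21.4, 18.6, 26 and 27.6 CPM at 24 h and 9.46, 7.81, 6.9, 13.4 and 6.95 CPM at 5 d (log2 fold change -1.54 ± 0.18 SE, adjusted p = 9.3e-06). Its untreated mean was 12.4 CPM, under the 24 h mean of 24.9 CPM. EGFR fell from 198 ± 31.5 to 120 ± 13.8 CPM and the erythropoietin receptor EPOR rose from 40.9 ± 1.55 to 62.5 ± 8.48 CPM. ALK and RET, receptor kinases of the sympathetic lineage, had 48.7 and 55.6 CPM and 1470 and 1780 CPM and did not pass the test (adjusted p = 0.41 and 0.18). Over this list of receptor kinases and neurotrophin receptors, 5 of 28 rose (17.9%, against 10.5% of all genes) and 3 fell (10.7%, against 6.23%), with a median of 0.11, while 5 fell without replicate 1 at 5 d and 8 rose without replicate 5 at 5 d.

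Mesenchymal markers, matrix genes and the secreted factors of senescent cells each held a larger share of genes that fell than the 6.23% of all genes. Of 26 mesenchymal markers, 12 fell (46.2%, against 6.23%) and 1 rose, with a median of -0.41. SNAI1, a repressor of epithelial genes, had 20.1, 22.5, 21.4, 21.9 and 26.2 CPM at 24 h and 6.89, 7.87, 6.52, 10.7 and 13.6 CPM at 5 d (log2 fold change -1.36 ± 0.16 SE, adjusted p = 8e-06), FOSL2, an AP-1 factor, fell from 14 ± 2.42 to 5.65 ± 2.71 CPM, the galectin LGALS1 from 310 ± 39.7 to 148 ± 17.4 CPM and endoglin, ENG, from 38.4 ± 7.65 to 18.6 ± 2.93 CPM. VIM, the intermediate filament vimentin, had 1080, 996, 1220, 854 and 846 CPM at 24 h and 747, 678, 830, 836 and 787 CPM at 5 d, lower without overlap but with a log2 fold change of -0.42, under the limit. Of 11 mesenchymal genes chosen as cell type markers, the 10 in the count tables summed to 1610 to 2330 CPM at 24 h and 1460 to 1620 CPM at 5 d.

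Of 67 matrix and integrin genes, 17 fell (25.4%, against 6.23% of all genes) and 5 rose (7.46%, against 10.5%), with a median of -0.09. In that list 10 rose without replicate 5 at 5 d, or 9 without replicate 2 at 24 h and on library totals alone. Those that rose included the laminin and integrin genes LAMA5, ITGA1 and ITGA7, the last from 9.97 ± 2.3 to 28.9 ± 13.5 CPM. Of 26 genes for factors secreted by senescent cells, 13 fell (50%) and none rose (median -0.55). The IGF-binding protein IGFBP3 had 54.9, 29.1, 55.6, 29.3 and 49.1 CPM at 24 h and 7.33, 6.25, 11.1, 5.09 and 15.7 CPM at 5 d (log2 fold change -2.31 ± 0.30 SE, adjusted p = 5.2e-05), IGFBP4 fell from 155 ± 13.9 to 74.3 ± 14.8 CPM and IGFBP6 from 15.6 ± 4.5 to 7.02 ± 0.54 CPM. Of 32 contractile genes, 6 fell (18.8%, against 6.23% of all genes) and 3 rose (9.38%, near the 10.5% of all genes), with a median of -0.14. The smooth-muscle actin ACTA2 went from 12.4 ± 3.56 to 5 ± 1.49 CPM.

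Of 27 BMP, TGF-beta and ID genes, 11 fell (40.7%, against 6.23% of all genes) and 1 rose (median -0.28; 2 rose on library totals alone and 0 in a fit of the 10 treated libraries; 0 to 2 rose when 1 library was left out, 0 without replicate 4 or 5 at 24 h or replicate 3 at 5 d and 2 without replicate 3 at 24 h or replicate 5 at 5 d). SMAD6, an inhibitory SMAD, had 53.6, 29.2, 42.4, 33.3 and 60.5 CPM at 24 h and 13.9, 8.93, 7.48, 11.4 and 20 CPM at 5 d (log2 fold change -1.89 ± 0.28 SE, adjusted p = 0.00015). BAMBI, a decoy receptor, fell from 27.1 ± 10.1 to 8.53 ± 1.77 CPM and SMAD7, the other inhibitory SMAD, from 46.3 ± 7.06 to 24.2 ± 2.53 CPM. In SMAD6 and BAMBI the 24 h libraries of replicates 2 and 4 were the lowest of their group. Of 26 Notch and proneural genes, 3 rose and 3 fell (11.5% each), with the Fringe enzyme LFNG falling from 14.2 ± 2.19 to 4.25 ± 1.72 CPM and NOTCH1 from 22.1 ± 6.72 to 12.3 ± 3.34 CPM. Of 15 retinoid genes, 4 fell (26.7%) and 2 rose (13.3%, against 10.5% of all genes; 1 rose without replicate 1, 4 or 5 at 24 h or replicate 1, 2 or 3 at 5 d), with the retinoic acid binding protein CRABP1 falling from 28.4 ± 6.03 to 12.4 ± 2.86 CPM and the retinol transporter STRA6 from 352 ± 33 to 190 ± 55 CPM.

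Of 39 glycolysis and hypoxia genes, 21 fell (53.8%, against 6.23% of all genes) and 1 rose, with a median of -0.56. LDHA, lactate dehydrogenase A, had 493, 569, 578, 958 and 737 CPM at 24 h and 175, 205, 260, 387 and 365 CPM at 5 d (log2 fold change -1.32 ± 0.24 SE, adjusted p = 0.00066), ALDOC, an aldolase, fell from 116 ± 29.3 to 51.4 ± 13.8 CPM, PFKFB3, which makes the activator of phosphofructokinase, from 55.4 ± 11.7 to 26.6 ± 3.98 CPM and the lactate exporter SLC16A3 from a mean of 8.33 to 3.31 CPM (2.57 to 5.65 CPM across the 5 d libraries, replicate 4 the highest). The summed list stood at 9880 to 13858 CPM at 24 h and 6478 to 8741 CPM at 5 d, beside 9822 to 12533 CPM in untreated cells. Replicate 1 had the lowest sum at both times. From 24 h to 5 d 18 to 22 genes of the list fell, whichever of the 10 libraries was left out.

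Chaperones of the endoplasmic reticulum were among the genes that fell. Of 40 chaperone and unfolded protein response genes, 11 fell (27.5%, against 6.23% of all genes) and none rose (median -0.32), and 7 fell without replicate 1 at 5 d. HSPA5, the chaperone BiP, had 1020, 1090, 856, 1110 and 900 CPM at 24 h and 342, 411, 502, 418 and 551 CPM at 5 d (log2 fold change -1.22 ± 0.12 SE, adjusted p = 1.2e-06), from a 24 h level above the untreated mean of 584 CPM. CALR, calreticulin, fell from 902 ± 81.3 to 524 ± 55.4 CPM, SDF2L1, a partner of BiP, from 49.6 ± 4.98 to 25.8 ± 5.04 CPM and CRELD2, an isomerase-like protein, from 76 ± 5.63 to 46.8 ± 5.58 CPM. HSP90B1 (means of 1018 and 631 CPM) and XBP1 (113 and 80.0 CPM), chosen for their promoters after their values were seen, fell as well.

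The promoters of 4 of these genes are shown because each holds the endoplasmic reticulum stress element (ERSE), the sequence through which the unfolded protein response acts on chaperone genes. The letters searched were CCAAT, any 9 bases and CCACG, in this order on both strands of the 200 bases before the RefSeq start site, and they occur in 18 of 27305 promoters (0.0659%) and in 5 of the 38 of this list, 4 of them genes that fell. Capitals mark the matches, of which HSP90B1 has 2.
HSPA5, chr9:125241344-125241543, minus strand: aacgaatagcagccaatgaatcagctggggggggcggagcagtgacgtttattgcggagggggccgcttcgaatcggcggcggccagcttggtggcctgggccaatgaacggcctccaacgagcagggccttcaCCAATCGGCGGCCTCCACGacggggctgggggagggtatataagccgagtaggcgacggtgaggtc
HSP90B1, chr12:103930210-103930409, plus strand: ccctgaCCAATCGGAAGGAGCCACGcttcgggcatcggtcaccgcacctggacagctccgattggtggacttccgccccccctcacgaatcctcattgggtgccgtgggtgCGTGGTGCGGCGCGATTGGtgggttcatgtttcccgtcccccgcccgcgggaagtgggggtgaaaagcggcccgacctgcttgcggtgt
CRELD2, chr22:49918434-49918633, plus strand: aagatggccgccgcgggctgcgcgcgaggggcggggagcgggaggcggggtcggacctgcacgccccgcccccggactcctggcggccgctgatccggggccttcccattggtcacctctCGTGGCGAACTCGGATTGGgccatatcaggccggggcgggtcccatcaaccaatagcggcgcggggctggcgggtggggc
XBP1, chr22:28800570-28800769, minus strand: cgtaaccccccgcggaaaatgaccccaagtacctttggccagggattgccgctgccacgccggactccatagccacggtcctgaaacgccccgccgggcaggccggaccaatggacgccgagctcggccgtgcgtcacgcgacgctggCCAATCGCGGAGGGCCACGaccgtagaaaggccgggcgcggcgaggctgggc

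Several housekeeping lists had medians below 0. Of 92 splicing factors, 9 fell (9.78%, against 6.23% of all genes) and none rose (median -0.24), among them HNRNPM (from 429 ± 27.5 to 242 ± 67.3 CPM) and the SR proteins SRSF3 (from 319 ± 30.1 to 205 ± 50.4 CPM) and SRSF1 (from 389 ± 23.4 to 253 ± 54.2 CPM). Of 75 genes of the mitochondrial ribosome, 9 fell (12%) and none rose (median -0.22), led by MRPL23 (from 45.1 ± 3.21 to 28.3 ± 6.88 CPM). Of 76 respiratory chain genes, 7 fell (9.21%) and 1 rose (median -0.30), and of 64 genes of nucleolar ribosome biogenesis, 4 fell (6.25%) and none rose (median -0.22), led by UTP20 (from 79.4 ± 6.53 to 46.8 ± 5.48 CPM). Members lying lower without overlap numbered 23 of 92, 14 of 75, 14 of 76 and 14 of 64 in these lists, called or not, beside 8.93% of all genes. Without replicate 1 at 5 d, 3 splicing factors, 4 mitochondrial ribosome genes, 1 respiratory chain gene and 2 nucleolar genes fell, and without replicate 5 at 5 d, 14 splicing factors and 11 respiratory chain genes did. The respiratory chain count was 3 without replicate 3 at 24 h and 2 without replicate 2 at 5 d. With library totals as the scale, 5 mitochondrial ribosome and 4 respiratory chain genes fell. Of 19 neuronal splicing regulators, 4 rose (21.1%, against 10.5%) and 3 fell (15.8%), with CELF5 and CELF6 rising (from 9.7 ± 1.5 to 22.3 ± 3.3 CPM and from 11.6 ± 1.7 to 22.1 ± 3.42 CPM) and ELAVL4 and KHDRBS3 falling (from 459 ± 39.4 to 306 ± 45.1 CPM and from 41.8 ± 5.01 to 23.5 ± 3.42 CPM).

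Among the other metabolic and signalling lists, 6 of 55 lysosome and V-ATPase genes rose (10.9%, beside 10.5% of all genes) and none fell (median 0.10). The lysosomal regulator TFEB rose from 6.34 ± 1.24 to 13.3 ± 3.5 CPM, the arylsulfatase ARSA from 37.9 ± 5.05 to 71.6 ± 9.88 CPM and the protease CTSF from 46.1 ± 1.08 to 74.3 ± 6.9 CPM. Of 27 cholesterol genes, 3 fell (11.1%, beside 6.23% of all genes) and 2 rose (7.41%; median -0.26; 5 fell without replicate 3 at 5 d), with the synthase HMGCS1 falling from 91.3 ± 14.5 to 54.8 ± 7.22 CPM and the sterol exporter ABCG1 rising from 5.12 ± 1.03 to 16.8 ± 3.31 CPM. Of 40 ATF4, serine and amino acid genes, 4 fell (10%) and 1 rose (2.5%; 7 fell without replicate 5 at 5 d), with the amino acid transporter SLC7A5 falling from 121 ± 14.4 to 64.8 ± 14.9 CPM. Of 31 immediate early genes, 6 fell (19.4%) and 1 rose, the last being JUN (from 48.6 ± 7.97 to 78.1 ± 6.81 CPM) (2 rose without replicate 3 at 24 h), and KLF6 fell from 52 ± 5.57 to 31 ± 2.22 CPM. Interferon and antigen presentation genes were called 4 up and 4 down of 30 (13.3% each).

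The remaining lists are read against the same 10.5% and 6.23% of all genes. Of 17 oncofetal and imprinted growth genes, 2 rose (11.8%) and 4 fell (23.5%), with H19 rising, and NNAT and LIN28B falling from 42.8 ± 3 to 22.3 ± 4.93 CPM and from 35.5 ± 6.16 to 22.9 ± 3.56 CPM. Only 1 gene of that list rose when any of 3 libraries was left out, replicates 4 and 5 at 24 h and replicate 1 at 5 d. Of 59 primary cilium genes, 2 rose and 2 fell (3.39% each), with the Hedgehog factor GLI2 falling from 8 ± 0.506 to 2.85 ± 1.41 CPM. Of 23 genes of GD2 synthesis and surface targets, the somatostatin receptor SSTR2 fell (from 12.5 ± 4.69 to 5.93 ± 1.2 CPM) and none rose, or 1 rose without replicate 1 or 3 at 24 h or replicate 3 or 5 at 5 d and 2 rose on library totals alone. Of 9 chromaffin and bridge cell markers, 3 rose (33.3%) and 2 fell (22.2%), with CHGB and DGKK rising, and of 8 Schwann cell and glial markers, 2 rose (25%) and 1 fell (12.5%; 0 without replicate 2, 3, 4 or 5 at 24 h or replicate 1, 2 or 3 at 5 d, and 2 without replicate 4 at 5 d; 0 in a fit of the 10 treated libraries). No gene of the mitochondrial genome was among the genes analysed here.

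**Figure D4:**
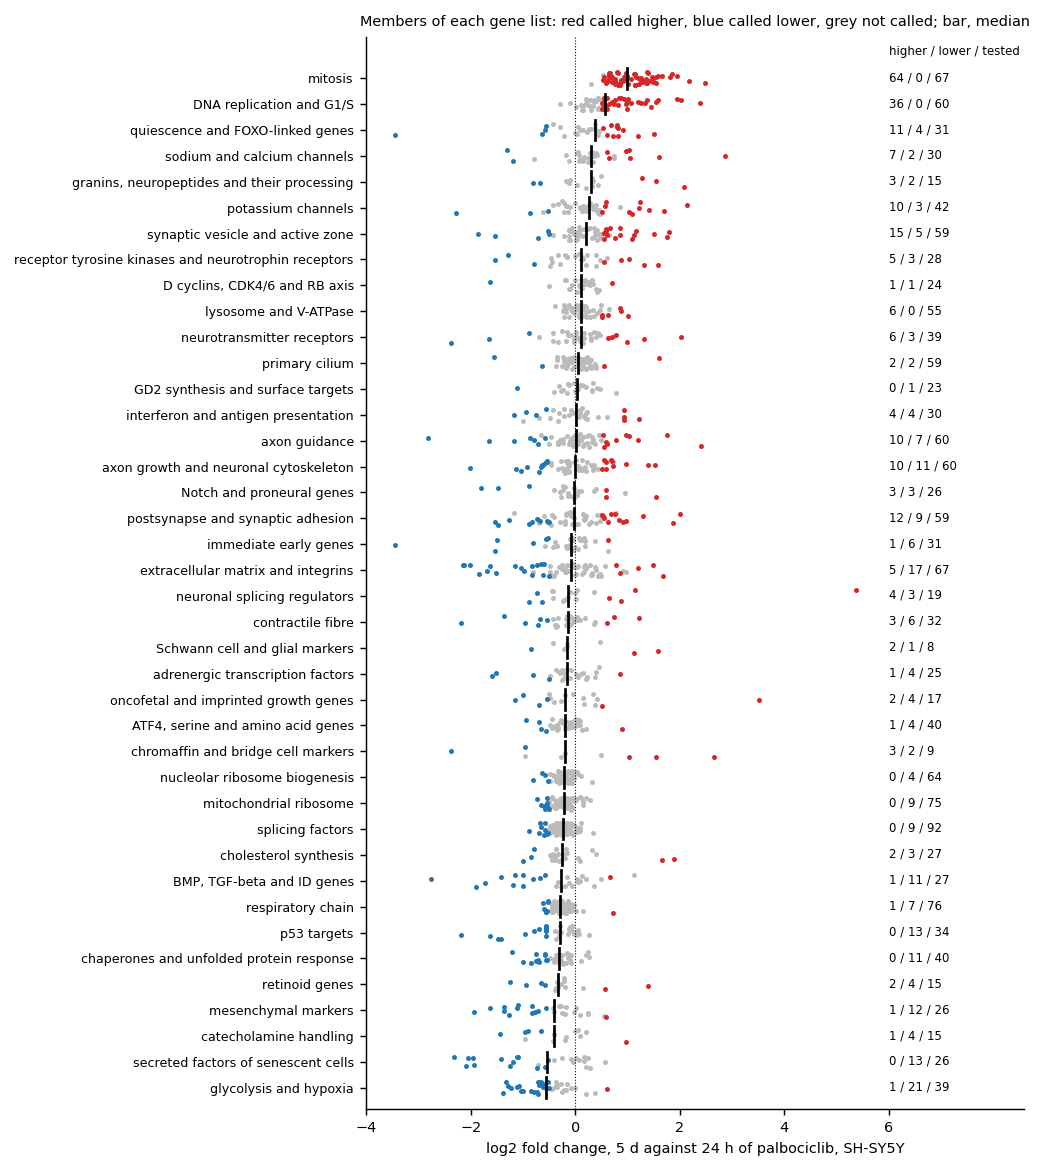
Log2 fold change from 24 h to 5 d of PB in SH-SY5Y (horizontal axis) for each tested member of 40 gene lists, ordered by their median (black bar), with genes called higher in red, lower in blue and not called in grey, and the counts higher, lower and tested at the right. The mitosis list lies at the top with 64 of 67 higher and a median of 0.99, and at the bottom are glycolysis and hypoxia, with 21 of 39 lower and a median of -0.56, and the secreted factors of senescent cells, with a median of -0.55 (-0.51 and -0.66 without replicate 1 at 5 d).

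IMR-32, a MYCN-amplified adrenergic line sampled at the same 2 times with 5 libraries each, was used to test which late changes differed between the lines. The change from 24 h to 5 d was higher in SH-SY5Y for 1256 genes (8.01%) and lower for 1081 (6.89%) of 15686 tested, by edgeR's test of the difference between the lines over 30 libraries. Replicate 5 of IMR-32 stood apart from the other 4 at both times. Of the genes with a mean of at least 5 CPM, 689 at 24 h and 339 at 5 d had a log2(CPM + 1) in it over 1 unit from the median of the other libraries, against 67 and 38 at most in another IMR-32 library, and its median correlation with them was 0.937 and 0.963. At 24 h it had 85.4 CPM of SNAI1, against 7.19 to 9.34 CPM in the others, and 2.44 CPM of the neuronal stathmin STMN4, against 32.1 to 36.8 CPM. Without it at both times, an alternative chosen after seeing the data, the change was higher in SH-SY5Y for 1515 genes and lower for 1289. The rise of replication genes was smaller in SH-SY5Y: the difference was called for 40 of 60, all lower in SH-SY5Y, and for 22 of 67 mitosis genes, also all lower (44 and 22 without replicate 5 of IMR-32). The median log2 fold change of the replication list was 0.56 in SH-SY5Y and 1.72 in IMR-32, or 1.79 in IMR-32 without that replicate. Glycolysis genes differed in 15 of 40, ATF4 genes in 12 of 40 and p53 targets in 10 of 34, all of them lower in SH-SY5Y. Without replicate 5 of IMR-32 these counts were 15, 12 and 11. The neuronal lists went both ways. Calls lower in SH-SY5Y outnumbered calls higher for axon growth and neuronal cytoskeleton (3 higher and 16 lower of 61) and postsynapse and adhesion (5 and 15 of 70). They also did so for neuronal splicing regulators (1 and 6 of 22) and sodium and calcium channels (1 and 6 of 38). Without replicate 5 of IMR-32 the counts were 3 and 18 of 61, 7 and 15 of 69, 1 and 6 of 22, and 3 and 7 of 38. For synaptic vesicle genes the counts were 6 and 10 of 65, but 6 and 6 of 66 without replicate 5 of IMR-32. Calls higher outnumbered calls lower for axon guidance (10 and 7 of 65), potassium channels (9 and 4 of 60) and neurotransmitter receptors (6 and 3 of 59). Without replicate 5 of IMR-32 the counts were 12 and 9 of 65, 11 and 7 of 60, and 8 and 4 of 59. Over all genes, too, calls higher outnumbered calls lower (8.01% against 6.89%). In other lists the change was higher in SH-SY5Y for 11 and lower for 1 of 35 Notch and proneural genes. Such counts were 11 and 0 of 56 lysosome genes, 16 and 6 of 78 matrix genes and 8 and 2 of 31 receptor kinases. Without replicate 5 of IMR-32, in the same order, they were 11 and 1 of 35, 11 and 2 of 56, 17 and 10 of 79, and 10 and 2 of 31. HSPA5 fell in SH-SY5Y and had 457 and 404 CPM in IMR-32 (difference -0.96 ± 0.17 SE, adjusted p = 0.00015), and CHGB rose in SH-SY5Y and had 168 and 151 CPM in IMR-32 (difference 1.78 ± 0.30 SE, adjusted p = 0.00012).

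H19 went in opposite directions in the lines. Across libraries it spanned 2.83 to 5.71 CPM at 24 h and 17.3 to 71.1 CPM at 5 d in SH-SY5Y, and 37.8 to 148 CPM at 24 h and 7.79 to 30.4 CPM at 5 d in IMR-32 (difference 6.15 ± 0.62 SE on the log2 scale, adjusted p = 1.6e-07). TCF7L1, a TCF factor of Wnt signalling, rose in SH-SY5Y, with 9.97 to 15.1 CPM at 24 h and 15.9 to 23.4 CPM at 5 d, and fell in IMR-32, with 2.53 to 11 CPM at 24 h and 0 to 0.56 CPM at 5 d (difference 5.31 ± 0.64 SE on the log2 scale, adjusted p = 1.7e-06). DBH fell in both lines, from a mean of 33 to 1.5 CPM in IMR-32 and from 3480 ± 617 to 1930 ± 420 CPM in SH-SY5Y (difference 3.63 ± 0.52 SE on the log2 scale, adjusted p = 2e-05). CELF2, a neuronal splicing regulator, spanned 0.0455 to 0.178 CPM at 24 h and 1.79 to 5.47 CPM at 5 d in SH-SY5Y, and 29.1 to 48.4 CPM at 24 h and 42.8 to 70.7 CPM at 5 d in IMR-32 (difference 4.88 ± 0.47 SE on the log2 scale, adjusted p = 4.5e-08). Its SH-SY5Y level thus rose from close to 0 to a value that no IMR-32 library came down to.

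The guidance receptor NRP1 fell in SH-SY5Y, with 3.49 to 6.11 CPM at 24 h and 0.112 to 0.966 CPM at 5 d, and rose in IMR-32, with 69.6 to 89.3 CPM at 24 h and 114 to 188 CPM at 5 d (difference -3.80 ± 0.34 SE on the log2 scale, adjusted p = 2.1e-08). MDGA1, a synaptic adhesion regulator, fell in SH-SY5Y, with 3.78 to 10.6 CPM at 24 h and 1.01 to 3.32 CPM at 5 d, and rose in IMR-32, with 2.65 to 8.58 CPM at 24 h and 19 to 34.1 CPM at 5 d (difference -3.86 ± 0.44 SE on the log2 scale, adjusted p = 5.9e-07). For the other 6 genes with the largest differences, 1 of the lines was near 0 at both times. The fitted difference depends on the prior count in these genes, and also in TCF7L1 and CELF2, which were near 0 at 1 time in 1 line. Levels were also low at 1 time for NRP1 (SH-SY5Y at 5 d, 0.112 to 0.966 CPM) and DBH (IMR-32 at 5 d, 0.932 to 2.24 CPM). DNAAF3, a dynein assembly factor, rose in SH-SY5Y from 8.06 ± 0.734 to 18.9 ± 7.15 CPM and was at or under 0.342 CPM in every IMR-32 library. TMOD1, which caps actin filaments, had 284 and 410 CPM in SH-SY5Y and at most 2.29 CPM in IMR-32. SLC18A1 and TRIM14 were at or under 0.233 and 0.224 CPM in IMR-32, and AKNAD1 and SH2D2A at or under 2.52 and 0.237 CPM in SH-SY5Y. The difference of SLC18A1 lost its call without replicate 1, 2, 3 or 4 of IMR-32 at 24 h or without replicate 1, 2 or 3 of IMR-32 at 5 d (-3.71 to -3.32), with no filter on low counts (adjusted p = 0.056) and in a fit of all 45 libraries (adjusted p = 0.16), and that of TRIM14 without replicate 5 of IMR-32 at 5 d (-3.40, adjusted p = 0.058) or at both times (-3.41, adjusted p = 0.072). In SK-N-BE(2)C, whose longer treatment lasted 7 days and which is therefore not compared, CHGB had means of 1030 and 3110 CPM at 24 h and 7 d, and HSPA5 991 and 580 CPM.

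**Figure D5:**
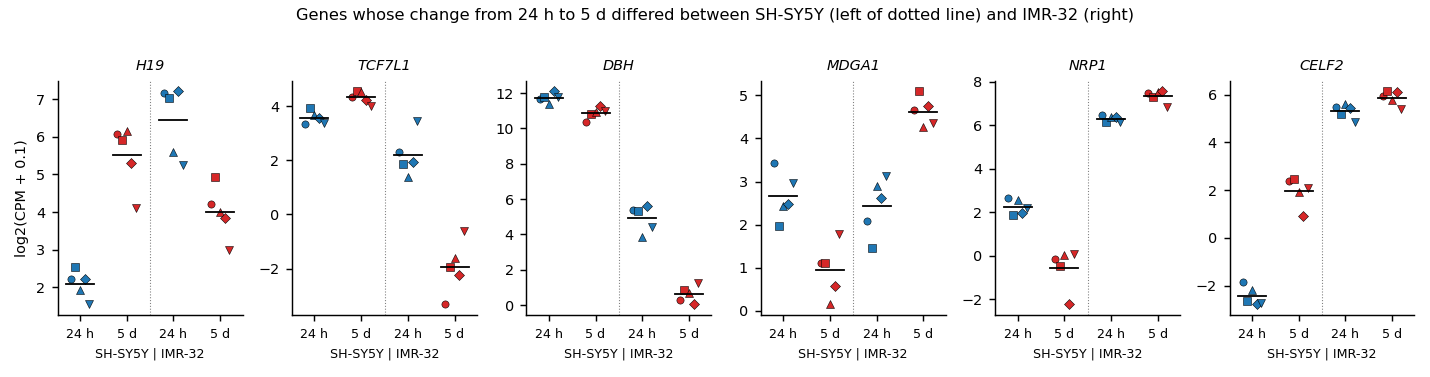
Level on a log2(CPM + 0.1) scale (vertical axes, each gene its own) in the 24 h (blue) and 5 d (red) libraries of SH-SY5Y, left of the dotted line, and IMR-32, right of it, with symbols for replicate numbers and lines for means. H19 and TCF7L1 rise in SH-SY5Y and drop in IMR-32, MDGA1 and NRP1 do the reverse, DBH drops further in IMR-32, and CELF2 rises from near 0 in SH-SY5Y.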

How the data were processed

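RNA was extracted with DNase treatment from SH-SY5Y cells left untreated or given PB for 24 h or 5 d, with 5 libraries in each group, and polyA-selected, directional libraries were sequenced in paired ends. The authors trimmed reads (Trim Galore 0.6.4 in the submitters' processing notes) and deposited counts per gene, made with STAR (2.6.1d in the same notes) on hg19. Which strand column they took is not stated. The notes also list DESeq2 1.32.0 for the study's own comparisons, whose tables of fold changes and p-values were not used here.

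The counts were tested as deposited with edgeR 4.0.16 (R 4.3.3, TMM factors, filterByExpr with a minimum count of 10 and a minimum total of 15, robust quasi-likelihood F test) on the 15 SH-SY5Y libraries with the contrast of 5 d against 24 h. The difference from IMR-32 was tested in 1 fit over 30 libraries. A call needed an adjusted p (Benjamini-Hochberg) under 0.05 with a log2 fold change over 0.5 in size. CPM was computed here from the library totals, so 0.0593 CPM is 1 count in the library of 16853018, and precision at such levels is limited by counting.

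Named genes were the 12 largest rises and 12 largest falls and the 5 largest of each by CPM among called genes with no overlap of the groups and a mean of at least 5 CPM, up to 4 such genes and fixed anchors per list, and the 6 largest differences from IMR-32 in each direction. The genes, lists and tests were chosen with earlier results of these data known. Samples with the same replicate number at 24 h and 5 d deviated together (correlation of deviations from the group means 0.174 to 0.344 in the 5 pairs), though samples of unlike number reached 0.353 and only 1 number had its own pair highest both ways. The labels give the number. Replicates were separate passages. The scripts were tested on simulated counts. Alternatives were RLE factors, library totals alone, no filter, no fold limit, DESeq2 1.42.0, the replicate block, fewer or more libraries in the fit and each library left out, and, added after seeing the data, replicate 5 of IMR-32 left out at both times. Some genes that the rule names are not reported here.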

Additional observations from a re-analysis of the deposited data

Results flagged for a closer look

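Of 330 groups of 5 libraries examined for named genes with a group mean of at least 1 CPM, 11 had a library set apart from the other 4 by Dixon's criterion, which chance alone passes in about 1 group in 20. At 24 h, replicate 2 was high for CLSTN2 (14.3 CPM, others 6.11 to 8.13) and BTG1 (92.5, others 80.0 to 83.6). Replicate 3 was high for CNKSR2 (1.72, others 0.733 to 0.911) and for JUNB, an AP-1 factor (85.4, others 72.2 to 75.4), and replicate 1 was low for SOX11 (155, others 184 to 193). At 5 d, replicate 4 was high for SLC18A2 (15.3, others 6.89 to 8.82) and SLC16A3 (5.65, others 2.57 to 2.9) and low for JUNB (44.7, others 55.6 to 59.8). Replicate 5 was high for SAMD11 (69.9, others 23.2 to 35.4) and low for NOTCH1 (6.34, others 13.5 to 14.1), and replicate 1 was high for TPM2, a tropomyosin (28.4, others 16.8 to 19.9). The rule that named CLSTN2, BTG1, CNKSR2, SAMD11 and SOX11 required no overlap of 5 d and 24 h, with these libraries included. Their lack of overlap was thus fixed in advance.

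The change from 24 h to 5 d differed between SH-SY5Y and IMR-32, by edgeR's test of the difference, most for the following genes. It was higher in SH-SY5Y by 6.15 on the log2 scale for H19, 5.31 for TCF7L1, 4.88 for CELF2, 3.74 for DNAAF3, 3.65 for AKNAD1 and 3.63 for DBH. The difference was -4.68 for TMOD1, -4.21 for TRIM14, -3.86 for MDGA1, -3.80 for NRP1, -3.75 for SH2D2A and -3.72 for SLC18A1. AKNAD1, DNAAF3, SH2D2A, SLC18A1, TMOD1 and TRIM14 were near 0 in 1 of the lines at both times. TCF7L1 (IMR-32 at 5 d) and CELF2 (SH-SY5Y at 24 h) were so at 1 time. The differences of these genes depend on the prior count. NRP1 (SH-SY5Y at 5 d, 0.112 to 0.966 CPM) and DBH (IMR-32 at 5 d, 0.932 to 2.24 CPM) were also low at 1 time.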

How the results depend on the processing

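The counts of genes kept within 1.5 times of the main values (1527 higher and 907 lower) under RLE factors, library totals alone, no filter on low counts, DESeq2, the replicate block and a fit of the 10 treated libraries alone. Without the fold change limit they became 3224 and 3107, and the genes whose change was higher in SH-SY5Y than in IMR-32 became 1904. With 1 library left out, 1432 to 1775 genes were higher, 732 to 1034 lower, and the change was higher in SH-SY5Y than in IMR-32 for 1102 to 1442 and lower for 931 to 1225. On library totals alone 71.3% of calls were higher, against 62.7%, with a median log2 fold change of 0.063 over all genes, against 0.004. The block on the replicate number gave 1572 and 962 calls, and beside CHGA and the D-cyclin list it changed no other named call. Of 158 called named genes, 9 lost the call in at least 1 of 16 alternatives and 0 reversed. NPY, not called (-0.12), ranged from -0.27 to 0.07 with 1 library left out, at 0.07 without replicate 1 at 24 h and 0.01 without replicate 5 at 5 d, and the cause was not tested. Longer exposure and longer culture cannot be told apart, and genes near 0 in a line are limited by depth.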

Other observations

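The families here were chosen after their values were seen, and over all genes 10.5% rose and 6.23% fell. Of 25 tested genes named CFAP, for cilia and flagella associated proteins, 11 rose from 24 h to 5 d of PB and 0 fell (median log2 fold change 0.47), and of 15 genes for axonemal dyneins and their assembly factors, 5 rose and 0 fell (median 0.19). Of 22 collagen genes, 7 fell and 0 rose (median -0.39), and of 18 synaptotagmin and synaptotagmin-like genes, 8 rose and 2 fell (median 0.47).

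Long noncoding RNAs made up 0.775 to 0.85% of counts at 24 h and 0.903 to 1.01% at 5 d. Of 903 tested, 190 rose (21.0%) and 50 fell (5.54%), beside 9.55% and 6.36% of 12737 protein-coding genes, by edgeR's calls. Of 429 genes with names ending in -AS or -DT, 94 rose and 17 fell, and many may share reads with a gene on the opposite strand.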
